A study of Arabidopsis thaliana with 12 samples.

Results

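The difference between 2 genotypes of Arabidopsis thaliana in the response of root explants to cytokinin was described gene by gene. For each gene the log2 change with cytokinin in wild type was subtracted from that in the line labelled CPL4RNAi. A gene was a member when its expression reached 1 FPKM (fragments per kilobase of transcript, scaled to the mapped fragments of the library) in at least 1 of the 4 groups. This held for 19197 of 33557 features. A negative difference means that the change with cytokinin was lower in CPL4RNAi than in wild type, whether through a weaker rise or a stronger fall.

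The explants were root segments of 10-day-old seedlings, kept for 5 days on callus-inducing medium and then for 72 hours on modified shoot-inducing medium, and harvested at an age of 18 days. The medium held either no cytokinin or 0.05 mg/L of the cytokinin 2iP (isopentenyladenine), stated by the labels to be a reduced dose. Wild type was Col-0 gl1, and the ecotype is given as Columbia for every sample. The 4 groups of 3 biological replicates are wild type without and with cytokinin and CPL4RNAi without and with cytokinin. The line is called CPL4RNAi in the titles, a knockdown in the design text and a CPL4 KO in the genotype field. Neither the promoter of the RNAi construct nor the number of lines is stated. CPL4, the targeted gene, encodes a phosphatase of the C-terminal tail of RNA polymerase II. It was at 14.5 and 13.9 FPKM in wild type without and with cytokinin, and at 36.3 and 32.2 FPKM in the groups labelled CPL4RNAi. The level thus goes against the label, and reads from an RNAi construct cannot be told apart from the gene's own transcript in these values. Every direction given below is that of the groups labelled CPL4RNAi. CPL4 itself had a difference of the cytokinin effect of -0.11 (SE 0.16), which was not called. CPL1, CPL2 and CPL3, its relatives, had differences of 0.14, 0.10 and 0.04, and none was called.

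Cytokinin is sensed by histidine kinase receptors, and the signal passes through phosphotransfer proteins to type-B response regulators, transcription factors that switch on target genes. Among the targets are the type-A response regulators, which dampen the signal. With auxin, cytokinin sets the fate of callus, and on shoot-inducing medium it drives shoot formation. It also acts in vascular tissue, where cambium divides and xylem cells lay down a lignified secondary wall and then die.

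Of the 19197 members, 18386 were tested. The deposited table holds 1 value per group, so the standard error (SE) of a difference was recovered from the p-values of the authors' deposited table. It was solved for 16917 genes. For another 1469 the p-values stood at their smallest value, and an upper bound of the SE was used ("SE at most"). The FPKM values are the authors' own group values, for which no SD can be given. The 811 members not tested were 140 with an FPKM of 0 in a group, 474 whose comparisons implied unequal errors and 197 without usable p-values. A difference was called at an adjusted p at or under 0.05 (2-sided normal test, Benjamini-Hochberg over all genes tested). At the threshold of membership, AT5G10680 with a highest value of 0.999 FPKM lay just outside and AT3G06990 with 1.00 FPKM just inside.

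The difference was called for 463 genes (2.52% of those tested). It was negative in 376 (2.05%) and positive in 87 (0.473%). Over all tested genes the median difference was -0.005, with the middle 50% between -0.18 and 0.14. The median was -0.99 over the negative calls and 0.91 over the positive calls. The size reached 1 on the log2 scale in 182 negative and 33 positive calls. The smallest called difference was 0.49 in size, and the median distance from an uncalled difference to its 95% bounds was 0.36, so that smaller differences were mostly not detectable. Calls occurred at every level of expression, in 2.41% of genes peaking between 1 and 5 FPKM, 2.21% between 5 and 20, 2.52% between 20 and 100, and 3.95% at 100 FPKM or more. They were spread over the 5 nuclear chromosomes at 2.34% to 2.79% of tested genes.

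**Figure D1:**
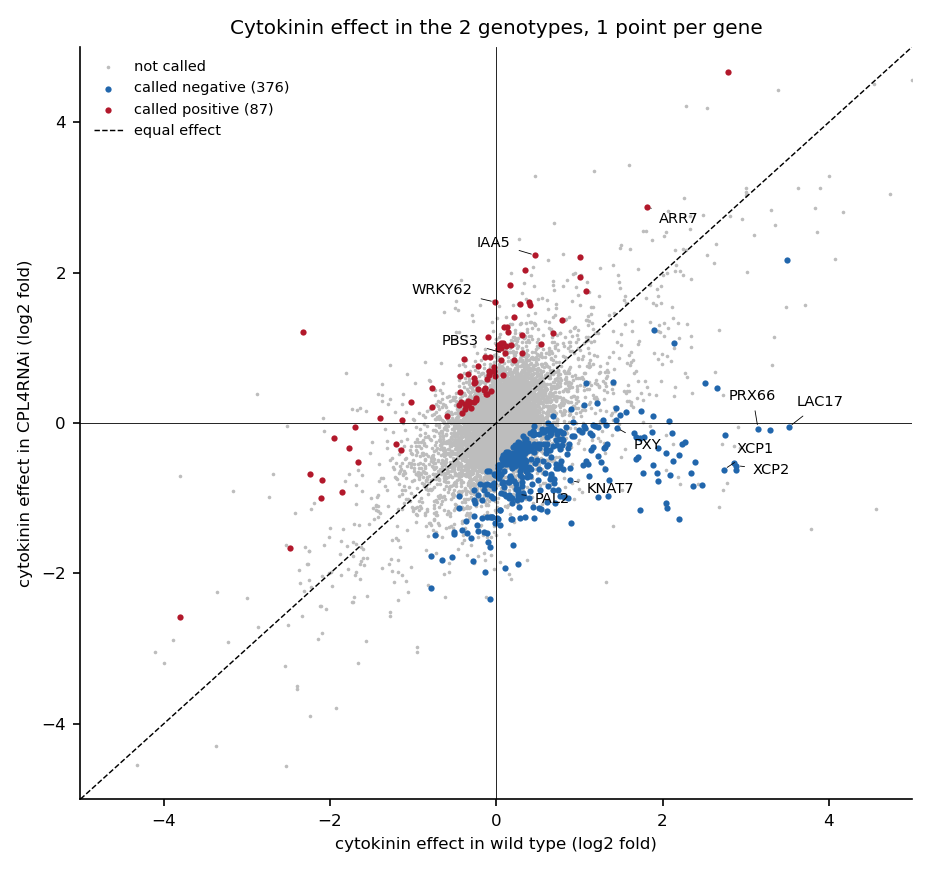
Log2 fold change with cytokinin in wild type (horizontal axis) and in CPL4RNAi (vertical axis), with 1 point for each of the 18386 genes tested and 7 points outside the axes. The 376 genes called negative lie below the dashed line of equal effect, many of them to the right of 0 and under 0, and the 87 called positive lie above it.

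The calls of the authors' deposited table, taken at a q-value at or under 0.05, show in which genotype a change with cytokinin was called. A change that was not called can still be present, so the counts do not show which genotype made up a difference. As background, the authors' deposited table has 6.61% higher and 3.68% lower with cytokinin in wild type, and 8.49% higher and 8.91% lower in CPL4RNAi, as shares of the members tested in each of its comparisons. Of the 376 negative genes, 97 were higher with cytokinin in wild type and lower in CPL4RNAi by the authors' deposited table. Another 93 were higher in wild type and not called in CPL4RNAi, and 166 were not called in wild type and lower in CPL4RNAi. Only 12 fell and 7 rose in both genotypes, and 1 was called in neither. Among the 87 positive genes 46 were not called in wild type and higher in CPL4RNAi by the authors' deposited table. Another 20 fell in wild type and were not called in CPL4RNAi. Of the rest, 12 rose in both, 7 fell in both, and 2 fell in wild type and rose in CPL4RNAi. These counts rest on the same values as the difference and describe it.

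Most of the negative genes were sorted into 2 patterns by their lowest group. Wild type without cytokinin was the lowest of the 4 groups for 200 of them, and CPL4RNAi with cytokinin was the lowest for 173. Of all genes tested, 28.7% and 29.8% did so. The sign of a negative difference itself bears on which group is lowest and which is highest. The highest group was CPL4RNAi without cytokinin for 222 and wild type with cytokinin for 133. By the authors' deposited table, 233 of the 376 were higher in CPL4RNAi than in wild type on medium lacking cytokinin and 90 on medium that held it, beside 22.6% and 24.8% of the members tested in those comparisons. The authors' deposited table has 48 of them lower in CPL4RNAi without cytokinin and 181 with it, beside 21.7% and 25% of the members tested. The genotype gap and the difference share all 4 groups, so these are set side by side with nothing read from them.

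Of the 200 genes in the first pattern, 22 stand in 5 lists of xylem genes. Of 61 tested genes in these lists (regulators, secondary wall polysaccharides, lignin polymerization, monolignol synthesis, cell death), 23 were called negative and none positive. Of the 61 differences, 55 were below 0. Over all genes tested, 2.05% were called negative, 0.473% were called positive and 9380 of 18386 differences were below 0. These shares are also the background for the list counts below. Wild type without cytokinin held the lowest level for 48 of the 61 (78.7%), beside 28.7% of all genes tested and 53.2% of genes called negative. The sign of the difference bears on which group is lowest, and the lists were chosen with earlier results of these data known. These are bulk explants, so fewer xylem cells and less RNA per xylem cell cannot be told apart.

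The proteases of xylem cell death stood among the genes with the largest differences. XCP1 and XCP2 encode cysteine proteases of the xylem vacuole that digest the dying cell. XCP1 (AT4G35350, chromosome 4) stood at 2.57 (without cytokinin) and 17.1 FPKM (with it) in wild type, and at 32.3 and 21.0 in CPL4RNAi. Only wild type without cytokinin was low. The difference was -3.36 (SE at most 0.69). XCP2 (AT1G20850, chromosome 1) read 1.83 and 13.5 FPKM in wild type, then 23.4 and 15.8 in CPL4RNAi, with a difference of -3.45 (SE at most 0.73). Both were called higher with cytokinin in wild type and lower in CPL4RNAi in the authors' deposited table. With cytokinin the genotypes lay close together, at log2 gaps of 0.30 and 0.23, against 3.65 and 3.68 without it. MC9, a metacaspase of xylem autolysis, was at 5.33, 11.7, 23.2 and 21.2 FPKM in the same order of groups, and its difference was -1.26 (SE at most 0.30). XSP1, a xylem serine protease, had a difference of -0.74. In all, 4 of 7 tested members of this list were called negative and none positive, with a median of -0.74. BFN1 and RNS3, nucleases of senescing and dying cells, were not called at -0.43 (SE 0.18) and -0.39 (SE at most 0.27). CEP1, an endopeptidase of dying cells, was not called at 0.47 (SE at most 0.19).

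The 250 bases before the RefSeq gene start are shown for XCP1 and XCP2, since both proteases had near-equal profiles over the groups. Capitals mark any match on either strand to CTTNAAAGC (the first letters of the tracheary element motif read by xylem NAC factors), TGTCTC (the auxin response element) and AGATTCG or AAGATNTT (motifs of type-B response regulators). The sequences are from RefSeq, build TAIR10.1, both on the plus strand, at chr4:16810232-16810481 for XCP1 and chr1:7251861-7252110 for XCP2.
XCP1: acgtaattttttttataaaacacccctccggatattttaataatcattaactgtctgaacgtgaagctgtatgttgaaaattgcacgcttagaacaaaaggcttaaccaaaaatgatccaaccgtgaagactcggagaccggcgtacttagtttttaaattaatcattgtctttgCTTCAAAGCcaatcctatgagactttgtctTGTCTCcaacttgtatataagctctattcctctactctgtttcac
XCP2: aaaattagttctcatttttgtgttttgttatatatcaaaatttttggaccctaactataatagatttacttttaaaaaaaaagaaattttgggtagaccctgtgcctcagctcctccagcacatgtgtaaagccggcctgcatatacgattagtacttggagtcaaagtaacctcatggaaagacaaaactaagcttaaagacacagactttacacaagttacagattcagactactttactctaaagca
The XCP1 window holds CTTNAAAGC once and TGTCTC once, and the XCP2 window holds none of the 4 motifs. CTTNAAAGC occurred on either strand in 7 of 374 promoters of negative genes (1.87%), in 1 of 86 of positive genes (1.16%) and in 208 of 18226 of all tested genes. TGTCTC occurred in 12.6%, 8.14% and 10.5% of the same sets.

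Genes of the secondary wall followed the same profile. All 15 tested members of the wall polysaccharide list had a difference below 0, 6 of them were called, and the median was -1.66. CESA8, a cellulose synthase of the secondary wall, was at 0.40 and 2.22 FPKM in wild type and at 3.58 and 2.01 in CPL4RNAi, with a difference of -3.30 (SE at most 0.60). Its partners in the cellulose synthase complex, CESA7 and CESA4, had differences of -1.82 (SE 0.52) and -3.57 (SE 1.11). CESA4 was not called, and its levels were 0.42, 2.87, 5.48 and 3.15 FPKM in the same order of groups. TBL29, which acetylates xylan, was at 0.45 and 1.86 FPKM in wild type and 6.30 and 3.03 in CPL4RNAi, and IRX9, which elongates the xylan backbone, at 0.25 and 1.27 and then 4.24 and 2.38. Their differences were -3.10 and -3.20. CTL2, a chitinase-like protein of cellulose assembly, and GUX2, which adds side groups to xylan, were also called, at -3.40 and -1.66. With a pseudocount of 1 FPKM the calls of CESA8 (-1.81), CESA7 (-1.22), TBL29 (-1.84), IRX9 (-1.50) and CTL2 (-2.30) were lost, and CESA7 was not called with solved standard errors only. Each of these genes but CESA7 and CTL2 was under 0.5 FPKM in wild type without cytokinin. Not every wall gene had a large difference. KOR1, an endoglucanase of cellulose synthesis, FRA1, a kinesin, and IRX10 and IRX14, xylan synthases, had differences from -0.07 to -0.21, none called.

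Another 5 wall genes, IRX6, FLA11, IRX8, IRX15 and IRX15-L, were not tested because their comparisons implied unequal errors. Their differences were -3.09, -3.82, -3.70, -3.29 and -1.72. IRX6, a COBRA-like protein of the wall, was at 0.23, 1.13, 1.71 and 1.01 FPKM in the same order of groups, and FLA11, an arabinogalactan protein of fibres and vessels, at 0.40, 3.62, 3.46 and 2.19. When such genes were kept at their largest error, IRX6 was called and the other 4 were not.

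**Figure D2:**
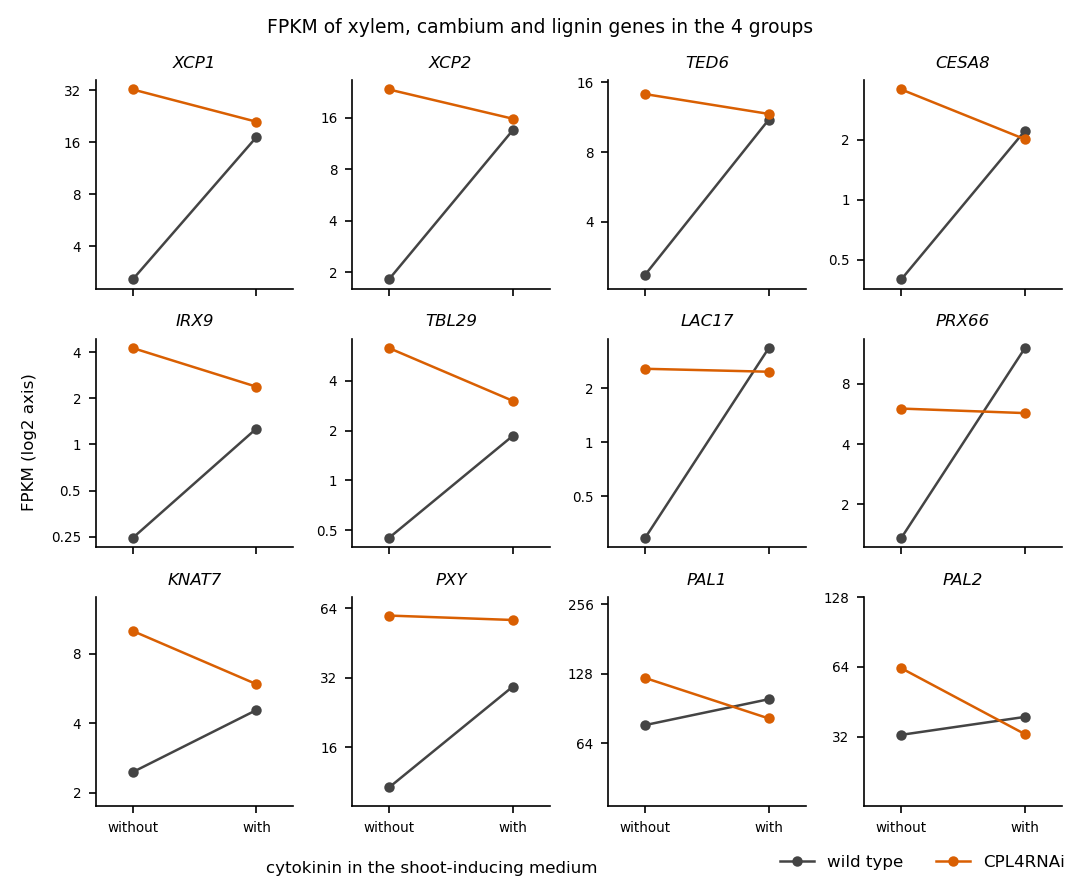
FPKM (log2 axis, scaled for each gene) of 12 xylem, cambium and lignin genes in wild type (grey) and CPL4RNAi (orange) without and with cytokinin, with 1 deposited value for each group of 3 replicates and no error bars. The grey line rises and the orange line is flat or falls in each panel, and the lowest point of each panel is wild type without cytokinin, in PAL2 by little (32.6 FPKM, beside 32.8 in CPL4RNAi with cytokinin).

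Lignin genes stood in separate lists for the polymerizing enzymes and the supply of monolignols. Of 9 tested genes of polymerization, 4 were called negative and none positive, with a median of -0.53. LAC4, LAC11 and LAC17 are the laccases that polymerize lignin in stems. LAC17 rose from 0.29 to 3.35 FPKM in wild type, while CPL4RNAi read 2.56 and 2.47, and the difference was -3.57 (SE at most 0.79). LAC11 and LAC4 had differences of -3.39 (SE 0.90) and -2.78 (SE 0.46), and PRX66, a peroxidase, one of -3.22 (SE at most 0.57). With a pseudocount of 1 FPKM, LAC17 and LAC11 were no longer called, at -1.79 and -2.18, and PRX66 still was, at -2.53. LAC17, LAC11 and PRX66 differed from the proteases in that wild type with cytokinin held their highest level. PRX66 was at 1.36 and 12.1 FPKM in wild type, and at 6.02 and 5.71 in CPL4RNAi. The other 5 tested members of the polymerization list were not called. Among them were PRX17 at 0.06 and PRX71 at -0.10, peroxidases at 57.3 FPKM or more in every group.

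Among monolignol genes, 7 of 15 were called negative and none positive. Their median of -0.51 lay near the -0.53 of the polymerization list. The lowest difference was -1.20, against -3.57 in that list. PAL1 and PAL2 encode phenylalanine ammonia-lyases, the entry to the pathway. PAL1 was at 76.7 and 99.2 FPKM in wild type and 123 and 81.9 in CPL4RNAi, with a difference of -0.95 (SE 0.15). PAL2 was at 32.6 and 38.9, then 63.2 and 32.8 FPKM, and differed by -1.20 (SE at most 0.20). The coumarate ligase 4CL1 had a difference of -0.94, CCOAOMT1, a methyltransferase, -0.85, C3H1, a hydroxylase, -0.80, HCT, an acyltransferase, -0.71 and PAL4 -0.62. CAD4 and CAD5, dehydrogenases of the last step, were not called at 0.03 (SE 0.17) and -0.16 (SE 0.15). F5H, a hydroxylase of syringyl lignin, had an uncalled difference of 0.55 (SE 0.31).

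The regulators of xylem showed smaller counts. Of 15 tested, KNAT7 and VND3 were called negative, and the median was -1.15. KNAT7, a homeobox repressor of wall genes, was at 2.46 and 4.56 FPKM in wild type and 10.0 and 5.90 in CPL4RNAi, and its difference was -1.65 (SE at most 0.30). VND3, a NAC factor of the vessel-forming family, had a difference of -1.59 (SE 0.40), which fell to -1.01 and was not called with a pseudocount of 1 FPKM. The vessel master regulators VND6 and VND7 were not called, at -2.91 (SE at most 0.97) and -1.88 (SE 0.63). In wild type both stayed near 1 FPKM or below, and in CPL4RNAi VND6 was at 8.92 and 5.43 and VND7 at 6.03 and 4.04 FPKM. VND1, by contrast, was at 4.79 and 8.04, then 15.7 and 21.8 FPKM, with an uncalled difference of -0.27 (SE at most 0.22). ACL5, a thermospermine synthase that delays xylem maturation, and VNI2, a NAC repressor, had differences of -0.27 (SE 0.16) and 0.02 (SE 0.15).

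Outside the lists, TED6, a membrane protein of differentiating vessels, was at 2.36 and 11.1 FPKM in wild type and 14.3 and 11.7 in CPL4RNAi, with a difference of -2.51 (SE at most 0.59). The other genes among the 12 largest negative differences at 5 FPKM or more were the germin-like GL22, the cupredoxin AT1G72230, the pectin lyase-like AT1G70500, the receptor kinase AT1G79620 and AT2G04850, annotated as an auxin-responsive family protein. Their differences ran from -2.52 to -2.91, and wild type without cytokinin was the lowest group for each. The thaumatin-like AT5G40020 (-3.51) and the DNA glycosylase AT1G13635 (-3.47) were called in opposite directions in the genotypes by the authors' deposited table. The calls of AT1G70500 (-1.55), AT1G79620 (-1.59), AT2G04850 (-1.67) and AT1G13635 (-1.45) were lost with a pseudocount of 1 FPKM.

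Of 13 tested cambium genes 10 had a difference below 0, the median was -0.24 and the highest 0.33. PXY, the receptor kinase that keeps cambium dividing and orients it, was at 10.7 and 29.3 FPKM in wild type and at 59.5 and 56.9 in CPL4RNAi, and its difference was -1.51 (SE at most 0.37). ATHB8, a homeobox factor of procambium, and RUL1, a receptor kinase of the cambium, had differences of -0.78 and -0.74. These were the 3 of 13 tested cambium genes called. WOX4 and ANT, a homeobox and an AP2 factor of the cambium, rose in both genotypes in the authors' deposited table. Their differences of -0.84 (SE at most 0.34) and -0.72 (SE at most 0.36) were not called. In size they lay near ATHB8 and RUL1, whose SE was at most 0.20 and 0.19. LBD3 went from 2.86 to 22.2 FPKM in wild type and from 7.56 to 49.8 in CPL4RNAi, an uncalled difference of -0.24 (SE at most 0.45). CLE44, which encodes the PXY ligand, had a difference of 0.00 (SE 0.15). None of 12 tested phloem genes was called, with a median of -0.11. The summed level of the 15 phloem markers was 127 and 153 FPKM in wild type and 82.8 and 105 in CPL4RNAi, and none was at 0. The cambium list summed to 588, 748, 525 and 615 FPKM in the same order of groups. Xylem regulators summed to 572, 669, 399 and 377 FPKM, and lignin polymerization genes to 206, 241, 306 and 336. Wall polysaccharide genes gave 172, 209, 261 and 228, and monolignol genes 1185, 1606, 2101 and 1869. Cell death genes gave 51.4, 92.1, 143 and 126. Of these xylem lists, only the regulators summed lower in CPL4RNAi in both media. Abundant members weigh most in such sums.

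**Figure D3:**
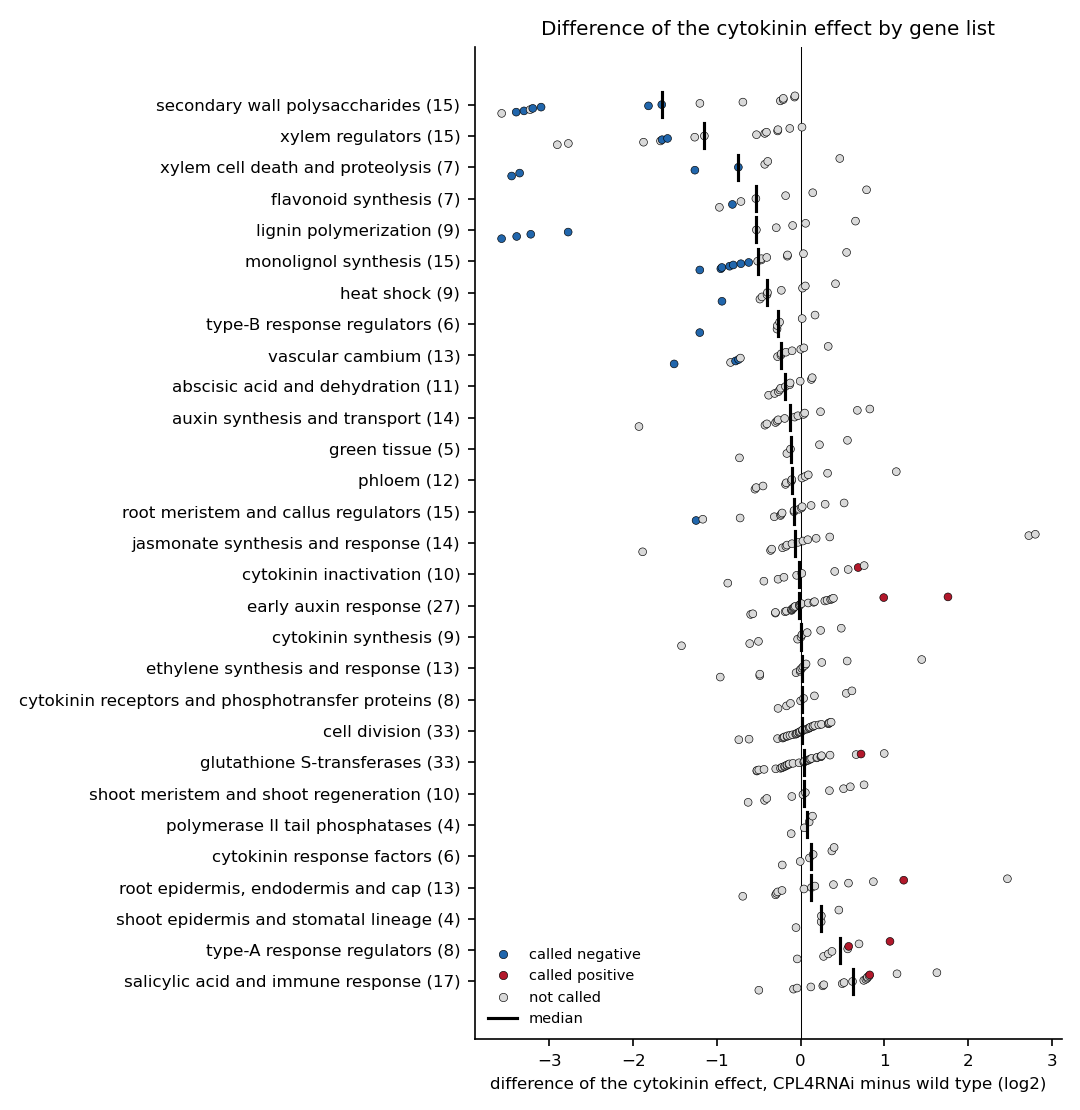
Difference of the cytokinin effect, CPL4RNAi minus wild type (log2, horizontal axis), of each tested member of the 29 gene lists, ordered by their medians (vertical bars), with the number tested in parentheses. Blue and red points are called negative and positive, grey points not called. The lists with the lowest medians are secondary wall polysaccharides and xylem regulators, and the highest median is that of salicylic acid and immune response genes.

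The second pattern among negative genes had its lowest level in CPL4RNAi with cytokinin. The genes named here were chosen after their values were seen, from the 15 with the largest differences at 5 FPKM or more. AT5G05960, annotated as a lipid-transfer family protein, was at 28.3 and 51.4 FPKM in wild type and at 35.3 and 17.7 in CPL4RNAi, highest in wild type and lowest in CPL4RNAi with cytokinin, with a difference of -1.86 (SE 0.23). RALFL32, a gene for a RALF-like peptide, was at 27.9 and 31.9, then 41.9 and 17.4 FPKM, with a difference of -1.46. CYP82C2, a cytochrome P450, was at 11.8 and 6.87, then 12.4 and 2.72 FPKM, and differed by -1.41. GRP9, a glycine-rich protein gene, was at 174 and 297, then 102 and 69.3 FPKM, with a difference of -1.33. UMAMIT11, a transporter gene, and MMP, a matrix metalloproteinase gene, had differences of -1.40 and -1.32, and AT4G00880 of the auxin-responsive SAUR family one of -1.62. None of the 7 is in the xylem lists.

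Within the cytokinin pathway, most type-A response regulators had a positive difference, and few were called. By the authors' deposited table, 7 of 8 tested members rose with cytokinin in each genotype. The difference was positive for 7 of 8, its median was 0.47, and 2 were called. ARR7 was at 9.54 and 33.5 FPKM in wild type and at 6.35 and 46.7 in CPL4RNAi, with a difference of 1.07 (SE at most 0.23). ARR4 was at 94.4 and 163, then 86.7 and 223 FPKM, with a difference of 0.57 (SE 0.16). In both, CPL4RNAi held the lowest and the highest level of the 4 groups. ARR3, ARR5, ARR6, ARR8 and ARR9 had uncalled differences of 0.70, 0.33, 0.56, 0.37 and 0.27. ARR15 was at 0.17 and 3.91 FPKM in wild type and at 0.16 and 3.54 in CPL4RNAi, and its difference of -0.04 had a 95% interval from -7.87 to 7.79, too wide to tell a difference. ARR16 and ARR17 stayed under 1 FPKM in every group.

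Receptors and phosphotransfer proteins (8 tested), cytokinin response factors (6) and synthesis genes (9) had no call in either direction. With 2.52% of all genes tested called, lists this short can hold none without standing apart. The 10 tested genes of cytokinin inactivation had a median difference of -0.02, with 5 above 0 and 5 below, the lowest at -0.87. CKX5, a cytokinin oxidase, was the only 1 called, at 0.69 (SE 0.20). It was at 12.3 and 26.0 FPKM in wild type and 8.87 and 30.0 in CPL4RNAi. CKX3, the most abundant cytokinin oxidase, had an uncalled difference of 0.41 (SE at most 0.27). The type-B response regulator ARR11 was the only 1 of 6 called. It was at 2.83 and 2.92 FPKM in wild type and at 2.13 and 0.952 in CPL4RNAi, a difference of -1.20 (SE at most 0.34). ARR1, ARR10 and ARR12, the main activators of the family, had differences of -0.25, 0.17 and 0.02, none called. Neither ARR11 (-0.71) nor CKX5 (0.64) was called with a pseudocount of 1 FPKM, and CKX5 was not called with solved standard errors only.

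Of 27 tested early auxin genes 2 were called, both positive. IAA5, a repressor of auxin response that auxin itself induces, was at 13.4 and 18.6 FPKM in wild type and at 4.14 and 19.4 in CPL4RNAi. Only CPL4RNAi without cytokinin was low, and the difference was 1.76 (SE at most 0.45). GH3.6, an enzyme that conjugates auxin to amino acids, was at 294 and 310, then 106 and 223 FPKM, and differed by 0.99 (SE at most 0.29). With a pseudocount of 1 FPKM, GH3.6 kept its size but not its call, and IAA5 was called at 1.55. The intervals of 23 of the 27 lay within 1 of 0, and the median was -0.02. Genes of auxin synthesis and transport (14 tested) had no call.

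The promoters of ARR7 and IAA5 are shown because these genes had the largest positive differences in the type-A and early auxin lists. Both lie on the minus strand and are written 5′ to 3′ toward the gene, with capitals as above, at chr1:6579315-6579564 for ARR7 and chr1:5366498-5366747 for IAA5 (RefSeq, build TAIR10.1).
ARR7: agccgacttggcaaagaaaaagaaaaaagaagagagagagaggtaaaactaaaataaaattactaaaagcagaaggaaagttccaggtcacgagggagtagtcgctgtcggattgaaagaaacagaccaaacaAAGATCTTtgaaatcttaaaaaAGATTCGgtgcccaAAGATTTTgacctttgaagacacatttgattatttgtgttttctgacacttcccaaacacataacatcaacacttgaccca
IAA5: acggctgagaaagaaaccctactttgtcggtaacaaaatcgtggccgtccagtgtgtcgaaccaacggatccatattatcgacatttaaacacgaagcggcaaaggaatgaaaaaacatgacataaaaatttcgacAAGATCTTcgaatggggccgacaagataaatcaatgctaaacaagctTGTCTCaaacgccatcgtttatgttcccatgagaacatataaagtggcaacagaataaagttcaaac
ARR7 holds AGATTCG once and AAGATNTT at 2 places, and IAA5 holds AAGATNTT once and TGTCTC once. AAGATNTT occurred in 14 of 86 promoters of positive genes (16.3%), in 11.0% of negative genes and in 11.4% of all tested genes. AGATTCG occurred in 2.33%, 2.14% and 3.06% of the same sets.

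**Figure D4:**
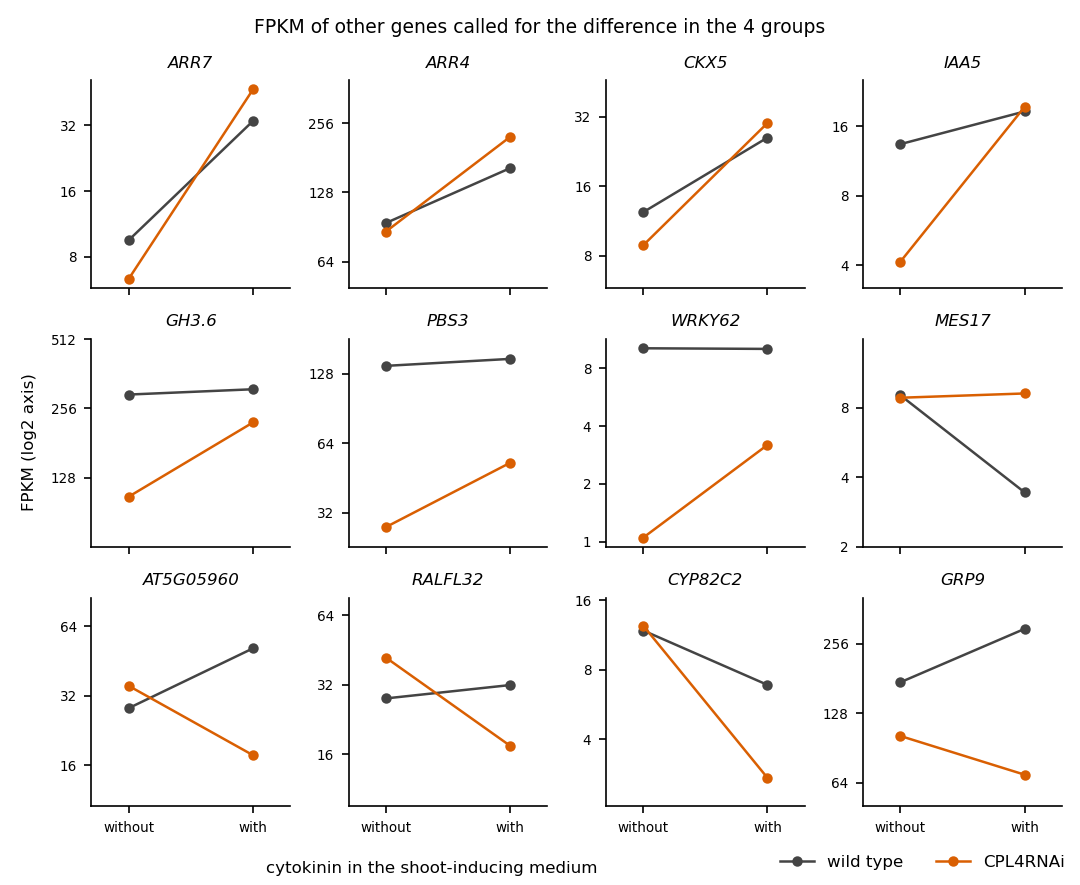
FPKM (log2 axis, scaled for each gene) of 12 further called genes in wild type (grey) and CPL4RNAi (orange) without and with cytokinin, with 1 deposited value for each group of 3 replicates and no error bars. The first 8 genes were called positive and the last 4 negative. IAA5 and GH3.6 are lowest in CPL4RNAi without cytokinin, MES17 in wild type with it and the last 4 genes in CPL4RNAi with it.

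Salicylic acid and immune genes had the highest list median, 0.62 over 17 tested, and 1 call. By the authors' deposited table, 11 of them rose with cytokinin in CPL4RNAi and 4 in wild type, and 16 were lower in CPL4RNAi than in wild type in either medium. Of the members tested in those comparisons, 8.49% and 6.61% rose, and 21.7% and 25% were lower without and with cytokinin. PBS3, which makes a conjugate on the way to salicylic acid, was at 139 and 149 FPKM in wild type and 27.7 and 52.7 in CPL4RNAi, with a difference of 0.83 (SE at most 0.25). SARD1 and ICS1, a regulator and the first enzyme of salicylic acid synthesis, were not called, at 0.80 (SE at most 0.25) and 0.75 (SE at most 0.25). Outside the list, WRKY62 was at 10.2 and 10.1 FPKM in wild type and 1.05 and 3.19 in CPL4RNAi, with a difference of 1.62 (SE at most 0.43). The resistance gene RPP4 had a difference of 1.24. It sits in a cluster of near-identical genes that may share reads, and its value is uncertain. PBS3 (0.80), WRKY62 (1.04) and RPP4 (0.61) were not called with a pseudocount of 1 FPKM.

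Of the 87 positive genes 46 had their lowest level in CPL4RNAi without cytokinin, as IAA5 did, and 40 in wild type with cytokinin. Of all genes tested, 21.8% and 19.7% did so, and the sign of the difference itself bears on which group is lowest. MES17, an esterase of methylated auxin, was at 9.07 and 3.44 FPKM in wild type and 8.86 and 9.25 in CPL4RNAi, with a difference of 1.46 (SE at most 0.37). AT1G73600, an annotated methyltransferase, and AT5G47600, an HSP20-like gene, were also lowest in wild type with cytokinin, with differences of 1.66 and 1.75. BRN1, a NAC factor of root cap maturation, was at 5.31 and 3.11, then 3.92 and 5.39 FPKM, with a difference of 1.23. The lipase-like AT3G27950 had the largest positive difference at 5 FPKM or more, 3.53 (SE at most 0.82), at 1.21 and 0.24, then 3.17 and 7.33 FPKM. With a pseudocount of 1 FPKM it was 1.83 and not called. AT2G16005, AT3G28600, AT5G20045, AT5G15950 and AT5G50120 completed the 12 largest, with differences from 1.24 to 1.88. AT5G15950 is an adenosylmethionine decarboxylase gene. With a pseudocount of 1 FPKM, 3 of these 12 genes kept their call (IAA5, AT5G15950 and AT5G50120), and BRN1 lost its own.

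Several groups of genes had few calls or none. Over all genes tested 2.52% were called, so lists of this size can hold no call without standing apart. None of 33 cell division genes was called, their median difference was 0.02, and the 95% interval lay within 1 of 0 for 31 of them and within 0.5 for 17. Over all tested genes this held for 15098 and 7509 of 18386. By the authors' deposited table, 25 of the 33 were higher in CPL4RNAi without cytokinin and 22 with it. Of the members tested in those comparisons, 22.6% and 24.8% were. The Casparian strip genes CASP1 and CASP2 fell with cytokinin in both genotypes by the authors' deposited table. CASP1 went from 9.07 to 1.88 FPKM in wild type and from 26.5 to 7.23 in CPL4RNAi, an uncalled difference of 0.39 (SE at most 0.63). Of 13 tested markers of the root's epidermis, endodermis and cap, BRN1 alone was called. The shoot regeneration genes had no call among 10 tested. WUS, the organizer gene of the shoot meristem, was listed at 0 in both wild-type groups and at 1.32 and 1.28 FPKM in CPL4RNAi. STM, a meristem homeobox gene, was at 0.07 and 0.04 FPKM in wild type and at 21.7 and 21.9 in CPL4RNAi, with an uncalled difference of 0.59 (SE 8.30). CUC1 and CUC2, boundary NAC factors, had uncalled differences of 0.51 (SE 0.33) and 0.03 (SE 0.18), and ESR1, an AP2 factor of shoot regeneration, one of 0.76 (SE at most 0.65). Ethylene (13 tested), jasmonate (14) and abscisic acid genes (11) had no call, nor had the markers of green tissue (5) and shoot epidermis (4).

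Single members were called in the remaining lists. These held 15 tested root meristem and callus regulators, 7 flavonoid, 9 heat shock and 33 glutathione transferase genes. Over all genes tested, 2.52% were called. The list medians were -0.08, -0.53, -0.40 and 0.04 in that order, and 5 of the 7 flavonoid differences were below 0. LBD33, a partner of the callus regulators, was at 15.8 and 19.8 FPKM in wild type and 8.61 and 4.52 in CPL4RNAi, with a difference of -1.25. CHS, the entry enzyme of flavonoid synthesis, had a difference of -0.81 at 3.49 and 7.27, then 3.91 and 4.64 FPKM. The small heat shock gene HSP17.6A had one of -0.94, and the glutathione transferase GSTU25 one of 0.72, at 66.4 and 62.7, then 146 and 227 FPKM. GSTU25 kept its call with a pseudocount of 1 FPKM, and LBD33, CHS and HSP17.6A did not. CHS was also not called with solved standard errors only.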

How the data were processed

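Root explants in 4 groups of 3 biological replicates were sequenced as stranded, ribosomal RNA-depleted total RNA with 125 nt read from each end. The tools bcl2fastq 2.17.1.14, TopHat2 2.0.14 and Cuffdiff 2.2.1.3 were used with build TAIR10, per the submitters' processing notes. The authors deposited 1 FPKM per group and, for each of 6 pairwise comparisons, a p-value and a q-value, per the file headers. Values per replicate and depth per library are not known here, so precision was judged by the standard error and no SD can be given.

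Differences of log2 FPKM were computed without a pseudocount. Where a pseudocount of 1 FPKM was tried, each SE was kept as it was. A fold's SE is its absolute value divided by the normal quantile that the deposited p-value gives. The summed variance of the 4 groups was taken from 3 pairings of comparisons that together hold all groups, using p-values at or under 0.95. Genes whose pairings differed by more than 10% were left out. A p-value at 5e-05, the smallest deposited, gives a quantile of 4.06 or more and thus an upper bound of the SE. This SE reflects the variance that Cuffdiff modelled, not an observed spread. The procedure was tested on simulated data. The simulated p-values came from the same normal formula, with equal variance in the groups. That test therefore cannot show whether the p-values of Cuffdiff follow this formula. The planned fit per replicate could not be made from group values.

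The members and the 29 gene lists were chosen with earlier results of these data known. Named genes are the type-A response regulators, the CPL genes, 11 xylem and shoot genes, the 12 largest called differences in each direction at 5 FPKM or more, the 3 largest called members of each list and the 6 largest with opposite calls in the genotypes. Others, chosen after their values were seen, are the untested and uncalled list members, the genes lowest in CPL4RNAi with cytokinin and the snRNA genes. Promoters are from RefSeq (TAIR10.1). All 26687 protein-coding genes compared overlapped their deposited TAIR10 position, but only 41.1% shared its first or last base. The printed windows of XCP1 and IAA5 adjoin the deposited gene. The XCP2 window ends at 7252110, and the deposited gene begins at 7252174. The ARR7 window begins at 6579315, and the deposited gene ends at 6579178. Python 3.11.15, numpy, pandas and SciPy were used.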

Additional observations from a re-analysis of the deposited data

Results flagged for a closer look

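Each result here differed between the genotypes by the test of the difference itself. The counts of genes were 376 negative and 87 positive. The negative xylem and wall genes were LAC17 (-3.57), XCP2 (-3.45), CTL2 (-3.40), LAC11 (-3.39), XCP1 (-3.36), CESA8 (-3.30), PRX66 (-3.22), IRX9 (-3.20), TBL29 (-3.10), TED6 (-2.51), CESA7 (-1.82), KNAT7 (-1.65), VND3 (-1.59) and MC9 (-1.26). Lignin precursor and cambium genes followed with PXY (-1.51), PAL2 (-1.20), PAL1 (-0.95), 4CL1 (-0.94), ATHB8 (-0.78) and RUL1 (-0.74).

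Among the other negative genes that were lowest in wild type without cytokinin were AT5G40020 (-3.51), GL22 (-2.91), AT1G72230 (-2.91), AT1G70500 (-2.62), AT1G79620 (-2.59) and AT2G04850 (-2.52). The 15 chosen as lowest in CPL4RNAi with cytokinin were AT5G66490 (-2.13), AT3G06390 (-2.03), AT5G05960 (-1.86), RHA1A (-1.72), AT4G00880 (-1.62), AT4G02830 (-1.58), AT1G25230 (-1.56), AT3G20340 (-1.49), RALFL32 (-1.46), GER2 (-1.46), CYP82C2 (-1.41), UMAMIT11 (-1.40), AT3G19030 (-1.34), GRP9 (-1.33) and MMP (-1.32). Also negative were AT1G13635 (-3.47), LBD33 (-1.25), ARR11 (-1.20), HSP17.6A (-0.94), CHS (-0.81) and the snRNA genes U12 (-0.90), U1.5 (-0.62), U2.3 (-0.57) and U2.6 (-0.54).

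The positive genes were AT3G27950 (3.53), AT2G16005 (1.88), IAA5 (1.76), AT5G47600 (1.75), AT3G28600 (1.66), AT1G73600 (1.66), WRKY62 (1.62), MES17 (1.46), AT5G20045 (1.34), AT5G15950 (1.29), AT5G50120 (1.24), RPP4 (1.24), BRN1 (1.23), ARR7 (1.07), GH3.6 (0.99), PBS3 (0.83), GSTU25 (0.72), CKX5 (0.69) and ARR4 (0.57).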

How the results depend on the processing

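The total of 463 calls (376 negative, 87 positive) fell to 225 (201 and 24) at an adjusted p of 0.01, to 215 (182 and 33) with a size of at least 1 on the log2 scale, to 212 (186 and 26) with a pseudocount of 1 FPKM, to 151 (129 and 22) with solved standard errors only, which leaves fewer genes tested, and to 73 (66 and 7) with the Bonferroni adjustment. The pseudocount makes differences at low FPKM smaller, while each SE was kept at its value without a pseudocount. Some loss of calls is thus built into this alternative, and how much was not tested. The total stayed between 397 and 469 under the other 7 alternatives, which changed the FPKM minimum, the variance sum, the genes left out, the centring and the gene class. Negative calls outnumbered positive ones under each alternative run. Called list members numbered 38, then 24 at 0.01 and 12 with solved standard errors only. Of 66 named genes tested, 29 lost their call with the pseudocount. The other 37 kept their side of the threshold, but these include genes not called in the main run, such as ARR3, CPL4 and STM. None of the named genes reversed in any alternative run. No paired analysis was possible because the deposited values pool the replicates of each group, and for the same reason no replicate could be left out. Low expression limits what can be seen: the median SE was 0.39 for genes peaking under 5 FPKM and 0.15 at 100 FPKM or more.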

Other observations

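Small nuclear RNA genes, the RNA parts of the spliceosome, had 4 negative calls among 9 tested, beside 2.05% of all genes. They were singled out after their values were seen. U12 (AT1G61275) was at 212 and 283 FPKM in wild type and 507 and 363 in CPL4RNAi, a difference of -0.90. U1.5 was at 25172 and 25567, then 29430 and 19397 FPKM, a difference of -0.62. U2.3 and U2.6 had differences of -0.57 and -0.54. The U2 genes are near-identical copies that may share reads, so their values are uncertain and not independent.

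Of 9 tested laccase genes 5 were called negative and none positive, with LAC3 and LAC5 beside the 3 named above, and a median difference of -1.18. Of 33 pectin methylesterase and inhibitor genes 4 were called positive and 1 negative, beside 0.473% and 2.05% of all genes. These families were picked by product name after values were seen.

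The non-coding gene AT1G15405 was listed at 0 FPKM in CPL4RNAi without cytokinin and between 106429 and 122873 FPKM in the other groups. In all, 28 of the 140 members with a 0 reached 5 FPKM in another group.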
